A study of Mus musculus with 24 samples.

Results

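A short hairpin RNA (shRNA) against the transcription factor FOXA2 was compared with a control hairpin in insulin-treated mouse hepatocytes. The comparison took every array whose title carried the insulin label, which gave 12 of the 24 arrays of the series, 6 with the hairpin labelled shA2.3 or shFOXA2.3 (called shFOXA2 here) and 6 with shlacZ, directed at a bacterial gene that mouse cells do not have. All cells were primary hepatocytes of male C57Bl6J mice, pooled from 3 mice for each of 3 experiments. Both hairpins were delivered by adenovirus at a multiplicity of infection of 5. All 12 cultures received 1 nM insulin for 4 h in a medium with 100 nM dexamethasone, a glucocorticoid. In each experiment 1 culture per hairpin received the solvent DMSO and 1 received 2 µM GW4064, an agonist of the bile acid receptor FXR. The experiment and the drug thus gave 6 pairs of arrays, 1 shFOXA2 and 1 shlacZ array in each. The other 12 arrays had the same design with 100 nM glucagon in place of insulin. FOXA2 was targeted by 1 hairpin sequence only and no group was free of virus, so an effect on FOXA2 and an effect of that hairpin on other transcripts cannot be told apart here. Technical replicates were pooled within a sample, and the replicate is the experiment.

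FOXA2 is a forkhead protein that binds enhancers and promoters of liver genes and opens chromatin there for other factors. In hepatocytes it is known for its part in fasting genes of glucose and lipid metabolism and in bile acid handling, and insulin signalling has been reported to restrain it. CSNK2A1, UXS1 and TERC come up repeatedly below. CSNK2A1 is the alpha catalytic subunit of casein kinase 2, a constitutively active serine and threonine kinase. UXS1 makes UDP-xylose, the sugar donor that starts the linker between a proteoglycan core protein and its glycosaminoglycan chain. Terc encodes the RNA template of telomerase.

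Levels are the deposited log2 expression values of an Affymetrix MoGene 2.0 ST array, and a difference is shFOXA2 minus shlacZ on that log2 scale. The median of all values was 3.25, and levels near it lie close to the floor of the array. The cells carried hepatocyte transcripts. The median level over 12 hepatocyte markers lay between 8.30 and 9.91 on the shlacZ arrays and between 7.78 and 10.09 on the shFOXA2 arrays, and the median of their differences was 0.02, which turned to -0.004 after quantile normalization. Alb, the albumin gene, lay between 12.89 and 13.19 on all 12 arrays. Array medians stayed between 2.63 and 3.03 for 9 macrophage markers, between 2.94 and 3.24 for 8 stellate cell markers, between 3.22 and 3.58 for 5 cholangiocyte markers and between 2.46 and 2.63 for 6 lymphocyte markers, medians near the floor. Single markers were higher, and Cd68, a lysosomal protein of macrophages, lay between 8.49 and 9.89 on the shlacZ arrays and between 7.86 and 9.96 on the shFOXA2 arrays, with a difference of -0.27 (SE 0.39). Cd14, another marker of that list, had -0.15 (SE 0.20) at a mean of 7.87. The 8 endothelial markers were higher, with array medians of 3.93 to 5.20. The endothelial cadherin gene Cdh5 lay between 6.22 and 7.99 and Lyve1 between 5.82 and 7.76, with overlapping ranges in the 2 arms. In bulk samples, fewer cells of a type and less RNA per cell cannot be told apart. Of these 48 markers of 6 cell types, 0 passed between the hairpins in limma, and 4 had an unadjusted p under 0.05 (5 with the experiment as a block). Over all genes 6.51% had such a p (10.4% with the block), so these counts show nothing particular to the markers.

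Few genes separated the hairpins beyond the spread between arrays. In a limma fit over 22180 genes, with the difference averaged over DMSO and GW4064, 1 gene had a Benjamini-Hochberg adjusted p under 0.05 (0.00451% of the genes), and it was Csnk2a1. With the experiment as a block, 2 genes passed (0.00902%), Csnk2a1 and Terc. Before adjustment 1445 genes (6.51%) had a p under 0.05, 707 of them higher and 738 lower. With the block that number was 2312 (10.4%). The counts given for gene lists below are to be read against these shares. With 1 of 22180 genes passed, 0 passed in a list says nothing particular about that list. Only 9 genes differed by 1.5-fold or more. The median standard error (SE) of an averaged difference over all genes was 0.089. The 2 pairs of an experiment enter this error as if they were separate.

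**Figure D1:**
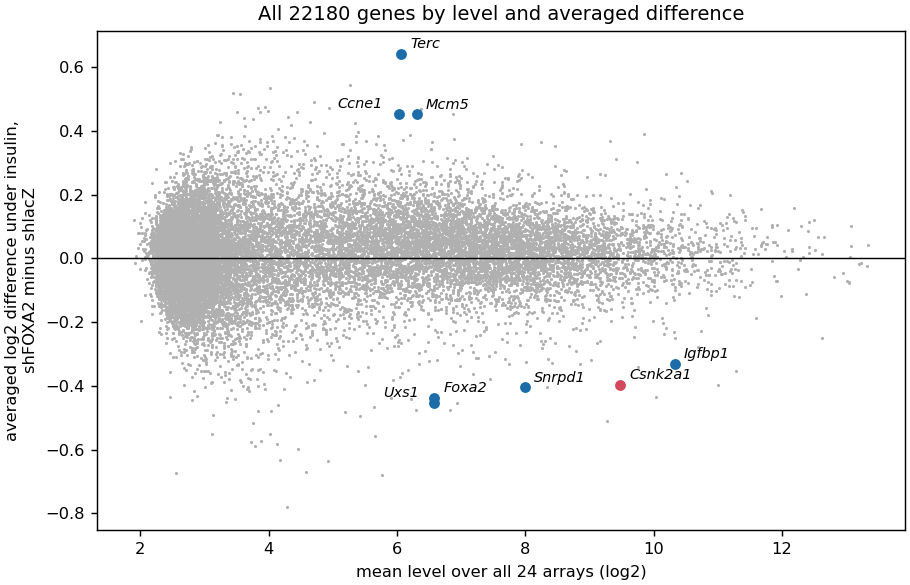
The averaged log2 difference between shFOXA2 and shlacZ under insulin (vertical axis) is plotted against the mean log2 level over all 24 arrays (horizontal axis), 1 grey point for each of 22180 genes. Csnk2a1 (red) at -0.40 was the gene that passed the limma test, and the other labelled genes (blue) are described in the text.

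The hairpin's own target came first as a check of the labels, and Foxa2 was lower with shFOXA2 in all 6 insulin pairs. With DMSO its level in experiments 1, 2 and 3 was 6.30, 6.28 and 6.22 in the shlacZ cells and 5.70, 5.54 and 6.08 in the shFOXA2 cells. With GW4064 it was 6.14, 6.07 and 6.21 in the shlacZ cells and 5.70, 5.59 and 5.98 in the shFOXA2 cells. The shFOXA2 arrays of experiments 1 and 2 lay below every control, and those of experiment 3 came close to them, so that 1 shFOXA2 array (6.08) overlapped the lowest control (6.07). The averaged difference was -0.44 (SE 0.10), a change of -26.1%. An exact two-sided test that flips the signs of the 6 pair differences gave p = 0.0312, the smallest that 6 pairs allow. That test treats both pairs of 1 experiment as independent. With 1 value per experiment the exact p was 0.25, the smallest that 3 experiments allow. Over all genes Foxa2 did not pass (limma adjusted p = 0.368, and 0.131 with the experiment as a block).

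The size of the Foxa2 difference depended on the experiment. Averaged over the DMSO and GW4064 pairs, it came to -30.3%, -34.4% and -12.0% in experiments 1, 2 and 3. All results below rest on cells with a partial reduction of the Foxa2 transcript, smallest in experiment 3. The protein was not measured in the data used here. Of 687 genes (3.1%) that were lower in all 6 insulin pairs, Foxa2 belonged to the 192 with a mean level of at least 5.

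The promoters of Foxa2 and of genes to which the results turn are shown to give their sequence context, as the 250 bases before the RefSeq transcript start on GRCm38.p6, written 5′ to 3′ on the gene's strand. Capitals mark any of 8 forkhead-type heptamers on either strand, which are TGTTTAC, the same with the ending AT, GC or GT in place of AC, and TATTTAC with the same choice of endings.
Foxa2 chr2:148046970-148047219: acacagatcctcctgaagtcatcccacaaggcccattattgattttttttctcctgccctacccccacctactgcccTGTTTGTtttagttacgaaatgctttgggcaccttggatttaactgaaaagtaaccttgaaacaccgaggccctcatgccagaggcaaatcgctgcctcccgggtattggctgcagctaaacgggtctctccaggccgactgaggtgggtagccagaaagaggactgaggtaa
Csnk2a1 chr2:152226590-152226839: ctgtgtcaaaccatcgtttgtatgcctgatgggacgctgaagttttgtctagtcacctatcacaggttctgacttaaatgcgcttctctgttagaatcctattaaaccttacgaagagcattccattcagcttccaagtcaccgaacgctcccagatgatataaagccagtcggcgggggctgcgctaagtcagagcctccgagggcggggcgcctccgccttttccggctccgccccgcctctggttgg
Uxs1 chr1:43827840-43828089: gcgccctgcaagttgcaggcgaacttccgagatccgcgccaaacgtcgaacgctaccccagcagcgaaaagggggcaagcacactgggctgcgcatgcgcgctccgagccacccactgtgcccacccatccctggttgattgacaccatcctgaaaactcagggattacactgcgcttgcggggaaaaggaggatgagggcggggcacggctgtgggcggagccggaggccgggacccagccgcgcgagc
Igfbp1 chr11:7197537-7197786: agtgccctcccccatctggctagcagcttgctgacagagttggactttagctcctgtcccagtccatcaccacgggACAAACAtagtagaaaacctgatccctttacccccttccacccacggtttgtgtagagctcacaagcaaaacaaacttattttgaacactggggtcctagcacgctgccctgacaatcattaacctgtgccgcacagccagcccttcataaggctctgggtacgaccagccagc
For Foxa2 the most upstream of 3 listed starts is shown, and the gene lies on the minus strand, as does Uxs1. The Foxa2 window held 1 match, TGTTTGT, which began 173 bases before the start. The Igfbp1 window held 1 match on the opposite strand, written ACAAACA here, 174 bases before the start. The Csnk2a1 and Uxs1 windows held 0 matches. Of 32851 promoter windows of the same length, 8177 (24.9%) held at least 1. A match is a description of letters and not a measured binding site.

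Csnk2a1 fell in the shFOXA2 cells, in every pair. With DMSO its level was 9.70, 9.83 and 9.82 in the shlacZ cells and 9.35, 9.31 and 9.31 in the shFOXA2 cells. With GW4064 it was 9.74, 9.89 and 9.65 against 9.40, 9.42 and 9.47. The highest shFOXA2 array (9.47) lay below the lowest shlacZ array (9.65), so the arms did not overlap. Among genes with a mean of at least 5, 13 of 7510 (0.173%) had all shFOXA2 arrays below all shlacZ arrays.

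The averaged difference of Csnk2a1 was -0.40 (SE 0.048, -24.0%). It passed in limma without the block (adjusted p = 0.0022) and with it (adjusted p = 0.00439). With DMSO alone it was -0.46 (SE 0.068) and passed (adjusted p = 0.0368), which the block did not keep (0.0693), nor did 13 of 15 fits without 1 experiment or 1 insulin array. With GW4064 alone it was -0.33 (SE 0.068) and did not pass (adjusted p = 0.589). The difference between both drugs was 0.13 (SE 0.097, adjusted p = 1.0). The size of the reduction was -21.4%, -29.1% and -21.2% in experiments 1, 2 and 3. The call needed all 3 experiments, since adjusted p was 0.334, 1.0 and 0.369 without experiment 1, 2 or 3. With 1 value per experiment it was 0.197.

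The other casein kinase genes differed little. Csnk2a2, the gene of the alternative catalytic subunit, had levels of 9.67 to 9.98 in the shlacZ cells and 9.73 to 9.92 in the shFOXA2 cells, a difference of -0.02 (SE 0.061). Csnk1a1, of the casein kinase 1 family, had -0.04 and Csnk1e had 0.09. Of 9 casein kinase genes listed, 7 were tested and 1 passed, and the median difference was -0.04 against 0.01 over all genes. The gene that passed was Csnk2a1 itself, given with the comparison, so that count is not separate support.

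Uxs1 was lower by nearly the same amount as Foxa2, with less spread. With DMSO the shlacZ cells had 6.72, 6.81 and 7.05 and the shFOXA2 cells 6.40, 6.32 and 6.39. With GW4064 the values were 6.78, 6.81 and 6.72 against 6.29, 6.42 and 6.35. No shFOXA2 array reached the lowest control. The averaged difference was -0.45 (SE 0.082, -26.9%). It missed the threshold over all genes (limma adjusted p = 0.131, and 0.0959 with the block).

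Around Uxs1, 19 genes of UDP-sugar supply, of xylose transfer and of the proteoglycan linker and chains were tested. In limma 0 passed (4 at an unadjusted p under 0.05 in either fit, Uxs1 among them). Their median difference was 0.02, with 11 higher and 8 lower. Besides Uxs1, Csgalnact1 and Xxylt1 were lower in all 6 pairs and Ext2 was higher in all 6, and these 4 make 21.1% of the list, against 7.09% of all genes with 1 sign in the 6 pairs. Uxs1 was given with the comparison and the list was drawn around it. Its part of the 21.1% was thus fixed in advance, and the 2 shares cannot be compared as a result. Csgalnact1, which starts chondroitin chains, differed by -0.19 and Xxylt1, a xylosyltransferase, by -0.21, but both had means close to the floor (2.41 and 3.32). Ext2, a polymerase of heparan sulfate, had 0.14. Ugdh, which makes the UDP-glucuronate that UXS1 uses, had -0.04 with an SE of 0.28.

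Terc was the opposite case, with a large difference on levels that varied between experiments. With DMSO the shlacZ cells had 6.14, 5.81 and 4.92 in experiments 1, 2 and 3, and the shFOXA2 cells had 6.51, 6.10 and 5.83. With GW4064 the values were 5.82, 5.26 and 4.89 against 6.56, 5.98 and 5.70. Each shFOXA2 array was above its own control, while the arms overlapped because experiment 3 was low in both. The averaged difference was 0.64 (55.9%), and an SE of 0.24 left it short of the threshold (limma adjusted p = 0.657). With the experiment as a block the SE was 0.097 and Terc passed, with an adjusted p of 0.024. It did not pass with 1 value per experiment (adjusted p = 0.142) or on the insulin arrays alone with the pairs as a block (0.0754). The other telomerase genes showed little. Tert, the catalytic subunit, had 0.03 at a mean level of 3.50, and Dkc1, which stabilises the RNA, had a rounded -0.00 at 9.30. This list of 7 telomerase genes was written after the Terc value was seen, and its median of 0.02 changed sign to -0.007 after quantile normalization.

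**Figure D2:**
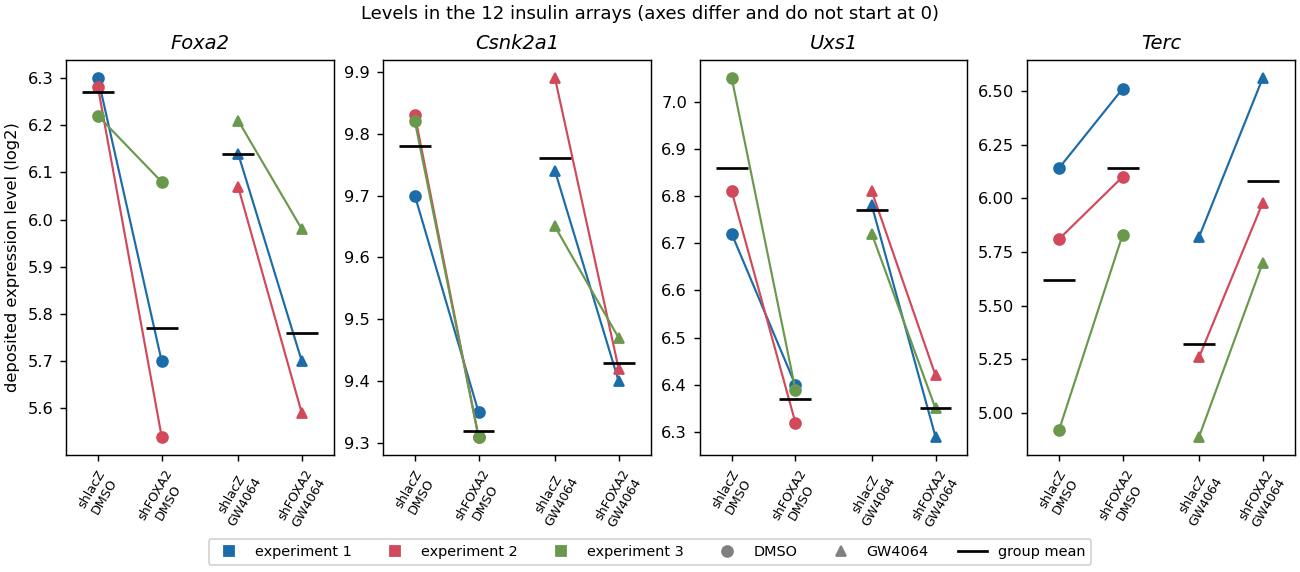
Deposited log2 levels of Foxa2, Csnk2a1, Uxs1 and Terc on the 12 insulin arrays are shown, with lines joining the shlacZ and shFOXA2 arrays of the same experiment (colour) and drug (circles DMSO, triangles GW4064) and black bars at group means. Every line runs down for the first 3 genes and up for Terc, whose experiment 3 arrays start lowest (4.92 and 4.89).

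Genes with 1 sign in all 6 pairs and a mean level of 5 or more over all 24 arrays were ranked by averaged difference. The 12 largest in each direction are named. They were picked for size and sign, so these values are a description. Same-sign genes made up 8.81% of the 7510 genes of that level, 470 higher (6.26%) and 192 lower (2.56%). The last gene inside the lower list was Fundc2 at -0.33 and the next outside was Mcoln1, also at a rounded -0.33. The last inside the higher list was Csf1 at 0.36 and the next was Pmp22 at 0.35. Of the 24 genes, 1 passed (Csnk2a1), and 2 with the block (Csnk2a1 and Terc).

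The lower genes, besides Foxa2, Csnk2a1 and Uxs1, had varied functions. Snrpd1, a core protein of spliceosomal snRNPs, lay at 8.21, 8.18 and 8.26 with DMSO and 8.56, 8.55 and 8.15 with GW4064 in the shlacZ cells. In the shFOXA2 cells it lay at 7.90, 7.87 and 7.79 with DMSO and at 8.20, 8.0 and 7.72 with GW4064. All pairs lay between -0.31 and -0.56 and 1 shFOXA2 array reached into the range of the controls, for an averaged difference of -0.41 (SE 0.11, limma adjusted p = 0.473).

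H2-Q10, a liver-rich class Ib histocompatibility gene, was separated between the arms, at 10.92 to 11.51 in the shlacZ cells and 10.61 to 10.90 in the shFOXA2 cells (difference -0.40, SE 0.11, and -0.26 with the mean of its probe sets). Class I genes are close copies of each other, so its probes may also read relatives. The interferon gene Ifna1, also of a family of near copies, had -0.38 with 6.06 to 6.32 against 5.60 to 6.0. The microRNA gene Mir467c had -0.48, and its pairs ran from -0.12 to -0.73, with all GW4064 pairs larger than all DMSO pairs. It too has close relatives, and the probe set does not tell mature from precursor RNA. Nanp, a phosphatase of sialic acid synthesis, had -0.44, of which 1 pair gave -1.13. Nanp was at -0.21 without the shFOXA2 array of that pair, -0.28 without experiment 2 and -0.18 with the mean of its probe sets. Fundc2, an outer mitochondrial membrane protein gene, had -0.33 with a smallest pair of -0.00 in GW4064 experiment 3, and -0.14 with the mean of its probe sets. The small nucleolar RNA gene Snord43 had -0.35.

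Egln3 and Nrg4 each had 1 pair far from the others. Egln3, an oxygen-sensing prolyl hydroxylase and a target of hypoxia-inducible factor, lay at 7.79 in the control and 6.12 in the shFOXA2 array of experiment 2 with DMSO, a pair difference of -1.67. Its other 5 pairs lay between -0.11 and -0.21. Bnip3, another hypoxia target, had -1.41 in the same pair and between -0.26 and 0.09 in the others. Over 9 hypoxia targets, a list written after this was seen, the median in that pair was -0.36 and the median of the averaged differences was -0.06. Nrg4, a secreted growth factor gene, had -0.91 in that pair and -0.17 to -0.41 elsewhere. Its insulin levels ran from 4.52 to 6.09 in the shlacZ cells and from 3.92 to 5.71 in the shFOXA2 cells. Its mean of 5.5 is over all 24 arrays, the glucagon arrays included. Leaving out single arrays moved the averaged difference of Egln3 between -0.81 and -0.06 and that of Nrg4 between -0.64 and -0.17. The weakest values came without the shFOXA2 array of that pair for Egln3 and without either control array of experiment 3 for Nrg4. These fits compare group means without pairing, so dropping 1 array of a pair also brings in level differences between experiments. Without the whole of experiment 2 Egln3 had -0.16, and without the whole of experiment 3 Nrg4 had -0.41.

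**Figure D3:**
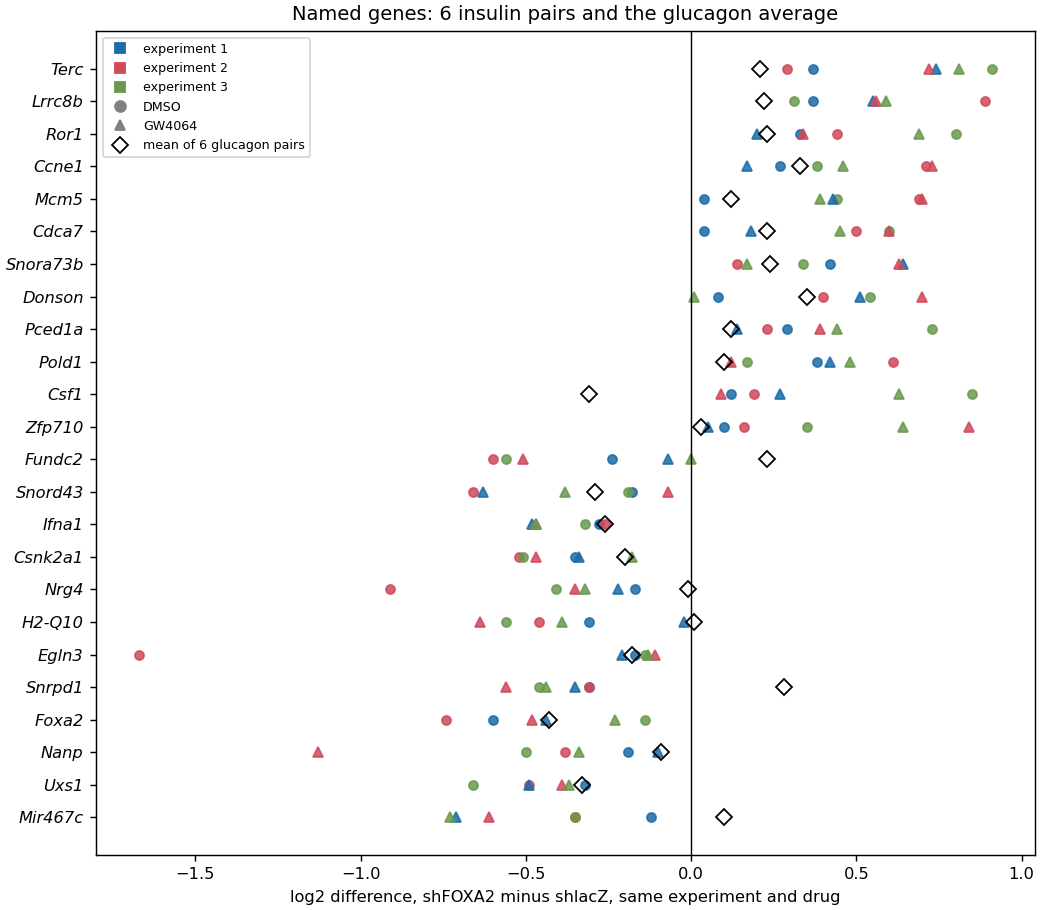
The 6 insulin pair differences (log2, shFOXA2 minus shlacZ; colour gives the experiment, circles DMSO and triangles GW4064) are plotted for the 24 named genes, with an open diamond at the mean of the 6 glucagon pairs. Egln3 has 1 pair at -1.67 apart from its others, and Snrpd1, Mir467c, Fundc2, H2-Q10 and Csf1 have glucagon means on the other side of 0.

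Among the higher genes, several serve DNA replication and entry into S phase. Ccne1, the gene of cyclin E1, lay at 5.78, 6.46 and 5.10 with DMSO and 5.90, 6.16 and 5.04 with GW4064 in the shlacZ cells. In the shFOXA2 cells it lay at 6.05, 7.17 and 5.48 with DMSO and at 6.07, 6.89 and 5.50 with GW4064. Each experiment kept its own level, and within it the shFOXA2 array was higher by 0.17 to 0.73. The averaged difference was 0.45 (SE 0.35, limma adjusted p = 0.945, and 0.119 with the block). Leaving out 1 of 4 arrays (the shFOXA2 arrays of experiment 2 or the shlacZ arrays of experiment 3) brought it to between 0.22 and 0.29. The other array of the pair stayed in these unpaired fits, so they also carry the level differences between experiments. Without the whole of experiment 2 or 3 the averaged difference was 0.32 or 0.47.

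Mcm5, a subunit of the replicative helicase, differed by 0.45, with pairs from 0.04 to 0.70. Pold1, the catalytic subunit of polymerase delta, had 0.36, Cdca7, a gene of the cell division cycle, 0.40, and Donson, which acts at replication forks, 0.37. The others had no such role in common. Lrrc8b, a subunit of volume-regulated anion channels, had 0.54, the receptor gene Ror1 0.47, Pced1a 0.37, the zinc finger gene Zfp710 0.36 and the small nucleolar RNA gene Snora73b 0.39. Csf1, the growth factor of macrophages, had 0.36, with its largest pairs in experiment 3 (0.85 and 0.63), and without 1 control array of that experiment the fit gave 0.06 (DMSO) or 0.02 (GW4064). Without the shFOXA2 arrays of experiment 1 or 3 with GW4064 it gave 0.20 or 0.62. The control arrays of experiment 3 also moved Ror1, to 0.25 without DMSO and 0.23 without GW4064, and Lrrc8b, to 0.34 without GW4064. In these fits the other array of the pair stayed in, so level differences between experiments enter the values. Without the whole of experiment 3 Csf1 had 0.17, Ror1 0.33 and Lrrc8b 0.59.

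A wider list of 37 replication genes was written after these values were seen, so it is given as a description. Of the 34 tested, 33 were higher and 1 (Mcm7, -0.01) was lower, with a median of 0.17. Of these, 12 (35.3%) were higher in all 6 pairs, against 3.99% of all genes and 6.26% of those with a mean of at least 5. They were the helicase genes Mcm2, Mcm4, Mcm5 and Mcm6, the licensing factor Cdt1, the sliding clamp Pcna, the polymerase genes Pold1 and Pole, the ribonucleotide reductase gene Rrm1, and Ccne1, E2f8 and Chaf1a. Ccne1, Mcm5 and Pold1 had been picked for that sign before the list was written. Part of the 35.3% was thus fixed in advance, and the shares cannot be compared as a result. Mcm2 had 0.31, Mcm4 0.29, Cdt1 0.31, Rrm1 0.26, Pole 0.39 and Pcna 0.14. The pair medians were highest in experiment 2, at 0.44 and 0.24 in experiment 2 against 0.05 and 0.15 in experiment 1 and 0.11 and 0.08 in experiment 3 (DMSO, then GW4064).

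Of the 34 replication genes, 10 had a mean level under 4, and 0 passed in either fit. At an unadjusted p under 0.05 there were 3, and 17 with the experiment as a block. Without experiment 2 the list's median was 0.10, and it was 0.22 and 0.21 without experiments 1 and 3. E2f8, a repressor of the E2F family, shows the weight of 1 array. It lay at 4.67 or lower on 11 arrays and at 5.47 in the shFOXA2 array of experiment 2 with DMSO, a pair difference of 1.60. The shorter cell cycle list gave 9 of 9 genes higher, where 11809 of all 22180 were, with a median of 0.28, and 0.14 without experiment 2. It shares genes with the replication list, Ccne1, Pcna and Mcm2 among them, and is not separate support. In it 4 genes had a mean level under 4. Of the 9, 0 passed in either fit, and 0 had an unadjusted p under 0.05 in limma (4 with the block). Its proliferation marker Mki67 had 0.48 (SE 0.39) at a mean level of 3.95, near the floor. Whether the number of dividing cells differed was not tested.

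**Figure D4:**
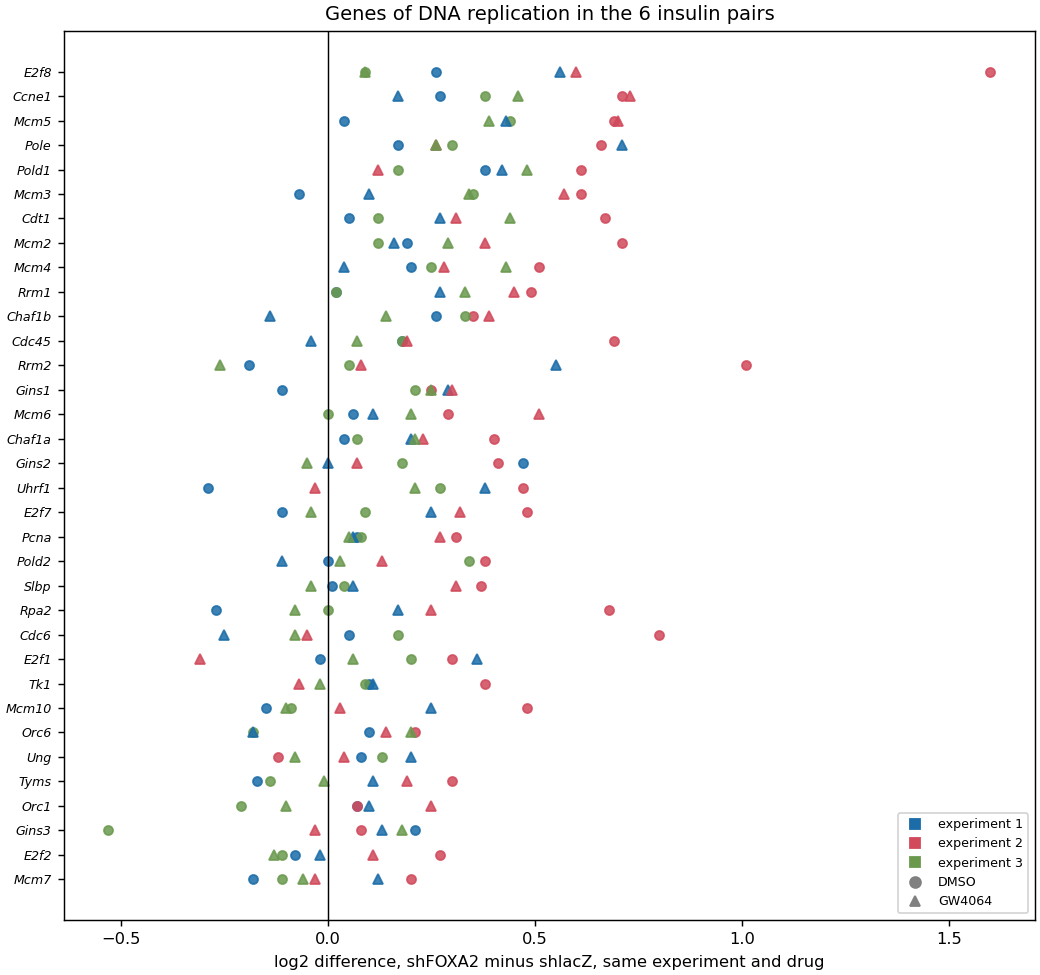
Pair differences (log2, shFOXA2 minus shlacZ) under insulin are plotted for 34 replication genes, ordered by averaged difference, with colours for experiments and circles for DMSO, triangles for GW4064. Most points lie right of 0, and those of experiment 2 with DMSO lie farthest to the right, E2f8 at 1.60.

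Of 21 tested genes that FOXA proteins bind in liver, 0 passed in limma, and 2 had an unadjusted p under 0.05 (4 with the block). They comprised 15 higher and 6 lower genes with a median difference of 0.04. Igfbp1, which encodes a carrier of insulin-like growth factors in blood and is repressed by insulin, differed the most. With DMSO it lay at 9.73, 10.09 and 9.63 in the shlacZ cells and 9.40, 9.17 and 9.53 in the shFOXA2 cells, and with GW4064 at 9.60, 9.81 and 9.50 against 9.44, 9.47 and 9.37. All 6 pairs were lower with the hairpin and the ranges overlapped between 9.50 and 9.53. The averaged difference was -0.33 (SE 0.13, -20.4%; limma adjusted p = 0.665). Its size by experiment was -15.6%, -35.4% and -7.64%, in the order of the Foxa2 reduction, a description over 3 experiments.

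Alb, Afp and Cebpa were higher in all 6 pairs, by 0.10, 0.15 and 0.18, and with Igfbp1 they make 19.0% of the FOXA-bound list, against 7.09% of all genes and 8.81% of those with a mean of at least 5. Ttr, the transthyretin gene and a classical FOXA target, had 0.03 (SE 0.12) and Apoa1 had 0.03 (SE 0.063). Of 16 other forkhead genes 0 passed (0 at an unadjusted p under 0.05, and 2 with the block) and the median was 0.08. Foxa1 differed by 0.07 (SE 0.078) and Foxa3 by 0.02 (SE 0.12), which turned negative after quantile normalization. Foxp4 was the only one with 1 sign in all pairs, at 0.25. Foxo1, which insulin signalling keeps out of the nucleus, had 0.11 (SE 0.079).

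Of 10 gluconeogenic genes 0 passed, with 0 at an unadjusted p under 0.05 in either limma fit. Their median was 0.03, and 0 of 10 had 1 sign in all pairs. Pck1, the rate-limiting enzyme, lay between 3.07 and 4.16 on all 12 arrays and G6pc between 2.80 and 3.98, near the floor, where a lower level could not be resolved. Tat, a glucocorticoid-induced aminotransferase gene, varied from 7.46 to 9.76 and its pairs from -0.92 to 0.65. Of 13 liver transcription factors 0 passed (1 at an unadjusted p under 0.05, and 2 with the block), and Hnf4a had 0.03 (SE 0.21).

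Of 18 genes of lipogenesis and insulin response, 13 were higher and 5 lower, and 4 (22.2%) had 1 sign in all 6 pairs, Igfbp1 among them. The share with 1 sign was 7.09% over all genes and 8.81% over those with a mean of at least 5. Of the latter 7510 genes, 4766 were higher, so a majority of higher genes is not particular to this list. Fasn, the fatty acid synthase gene, was higher in all 6 pairs, between 0.12 and 0.24, for an average of 0.20 (SE 0.14, adjusted p = 0.923, and 0.241 with the block). Scd1, a desaturase, had 0.17 and the elongase Elovl6 0.20, also in all 6 pairs. Srebf1, their regulator, had 0.20, with 1 pair at -0.01. Irs2, an adaptor of the insulin receptor, had 0.36, from -0.06 to 1.10. Of these 18 genes 0 passed (3 at an unadjusted p under 0.05, and 5 with the block), with a median of 0.07. The 11 cholesterol synthesis genes had a median of 0.06, the 14 genes of fatty acid oxidation 0.07 and the 14 plasma protein genes 0.03, with 0 passed in each. At an unadjusted p under 0.05 there were 0, 1 and 1 of these in limma and 0, 3 and 1 with the block. In the oxidation list Cpt2 was higher in all 6 pairs (0.12, SE 0.069).

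Bile acid genes and FXR targets gave 0 of 19 and 0 of 13 passed, with medians of 0.01 and 0.06. An unadjusted p under 0.05 was found for 1 gene of each list in limma, and for 1 and 3 with the block. Cyp7a1, the rate-limiting enzyme of bile acid synthesis, was near the floor at 2.44 to 2.84. Hsd3b7, another enzyme of that pathway, was lower in all 6 pairs by an average of -0.15 (SE 0.23), and Slc51a, a basolateral transporter subunit, by -0.17 at the floor (mean 2.52). Nr0b2, the gene of the FXR-induced repressor SHP, had 0.06 and Nr1h4, the FXR gene, had 0.00 (SE 0.19), which was -0.033 after quantile normalization.

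Inflammatory genes stood apart in 1 pair. Over 22 acute phase and NF-kB genes the median difference was 0.16 and 0 passed (0 at an unadjusted p under 0.05 in limma, and 3 with the block). The pair medians were 0.03, 0.10 and 0.49 with DMSO and -0.09, 0.05 and 0.20 with GW4064, and the list's median was 0.03 without experiment 3. The chemokine gene Cxcl2 lay between 5.20 and 5.92 on 11 arrays and at 8.12 in the shFOXA2 array of experiment 3 with DMSO. In that pair Cxcl2 differed by 2.57, Cxcl1 by 1.57, Il23a by 1.64 and the adhesion molecule gene Icam1 by 1.31. Across all 6 pairs 4 genes of the list were higher, Tnfaip3, Il6, Csf1 and Ccl20, with Il6 near the floor (mean 2.69). The acute phase genes Saa2 and Orm2 went the other way and were lower in all 6 pairs (-0.28 and -0.27). Genes of 1 sign made up 27.3% of the list, against 7.09% of all genes. The part of the shFOXA2 array of experiment 3 with DMSO in other results was not tested.

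The 14 interferon response genes, measured because the cells carried virus, had a median of 0.07 with 0 passed, 1 at an unadjusted p under 0.05 in either limma fit and 0 of 1 sign in all pairs. Ifit3 had -0.71, -1.05 and -1.18 with GW4064 and 0.22, 0.24 and -0.39 with DMSO. The 11 genes of the RNA interference machinery had a median of 0.08, and Dicer1 had 0.12 (SE 0.10). The 14 genes of the ER stress and amino acid response had a median of -0.00. Of these 2 lists 0 genes passed, and 0 had an unadjusted p under 0.05 in either limma fit.

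**Figure D5:**
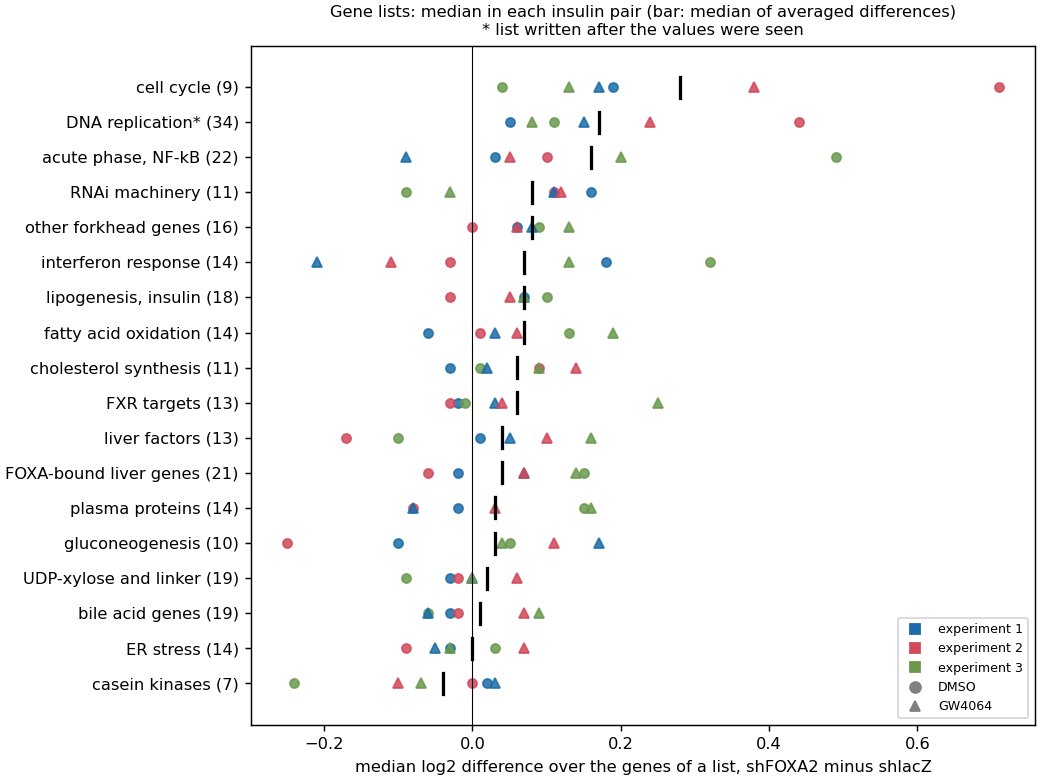
For each gene list (number of genes tested in brackets) the points give the median log2 difference over its genes in each of the 6 insulin pairs, and the bar gives the median of the averaged differences. The cell cycle list reaches 0.71 in experiment 2 with DMSO and the acute phase list 0.49 in experiment 3 with DMSO, while most other lists lie on both sides of 0.

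The hairpin difference did not change with the drug for any gene that passed a test. The effect of GW4064 itself against DMSO was not tested. With DMSO alone 1 gene passed (0.00451%), with GW4064 alone 0 of 22180 (lowest adjusted p 0.589, and 0.243 with the block). At an unadjusted p under 0.05 the GW4064 fit had 1072 genes (4.83%) in limma and 1771 (7.98%) with the block. The test of the difference between the drugs passed 0 genes, with 587 at an unadjusted p under 0.05 (2.65%) in limma and 968 (4.36%) with the block. The direction of the 587 went with level. Where the mean was at least 4, the hairpin difference was higher with GW4064 for 89 genes and lower for 20. Where the mean was under 4, it was higher for 110 and lower for 368. A gene counts as opposite where all 3 DMSO pairs are lower and all 3 GW4064 pairs higher, which held for 369 genes (1.66%), and the reverse held for 317 (1.43%). Both counts cover genes of every level. Among the 10 gluconeogenic genes 3 were of the first kind. They lie on the side that most of the 587 genes with a mean of at least 4 took. Pck1 had -0.08, -0.30 and -0.11 with DMSO and 0.45, 0.07 and 0.20 with GW4064. Ppargc1a, the coactivator of fasting genes, had -0.39, -0.39 and -0.33 against 0.41, 0.35 and 0.05. Gpt, alanine aminotransferase, had -0.31, -0.43 and -0.01 against 0.32, 0.39 and 0.14. The limma tests of the differences between the drugs gave unadjusted p of 0.633, 0.422 and 0.386 for Pck1, Ppargc1a and Gpt (limma adjusted p = 1.0 for each).

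Set beside glucagon, the hairpin differences of the leading genes had the same sign. Foxa2 had -0.44 under insulin and -0.43 under glucagon, although its level in the shlacZ cells with DMSO was 6.27 ± 0.038 (SD, n = 3) under insulin and 7.47 ± 0.24 (SD, n = 3) under glucagon. Csnk2a1 had -0.40 and -0.20, with 12 of 12 pairs lower over both hormones, and the difference between the hormones had an unadjusted p of 0.0106 and a limma adjusted p of 1.0. Uxs1 had -0.45 and -0.33, lower in 5 of 6 glucagon pairs. Terc had 0.64 and 0.21. Ccne1 and Rrm1 were higher in all 12 pairs. Under glucagon 539 genes (2.43%) were higher and 392 (1.77%) lower in all 6 pairs, and 30 genes (0.135%) were lower and 28 (0.126%) higher in all 12.

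Over all genes 0 passed the test of insulin against glucagon, with 921 at an unadjusted p under 0.05 (4.15%) in limma and 1541 (6.95%) with the block. Snrpd1 had -0.41 under insulin and 0.28 under glucagon, a difference of 0.69 (SE 0.16, unadjusted p = 0.000317, adjusted p = 1.0). Fundc2 had -0.33 and 0.23, and it was 1 of 9 genes (0.0406%) lower in all 6 insulin and higher in all 6 glucagon pairs, although its pair of experiment 3 with GW4064 was a rounded -0.00 and 0.00, where 6 genes (0.0271%) had the reverse. Mir467c had -0.48 and 0.10, and H2-Q10 -0.40 and 0.01. The median of the replication list was 0.17 under insulin and 0.07 under glucagon, and that of the acute phase list 0.16 and -0.18, differences that were not tested as lists.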

How the data were processed

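RNA of 24 hepatocyte cultures was measured on MoGene 2.0 ST arrays from 300 ng of total RNA each, per the labels' protocols. The authors deposited log2 expression values for 41345 probe sets, with 0 missing values. The log2 scale was read from the values (1.46 to 13.5). GeneSpring was used per the series' design text, and for background correction and normalization the method is not given in the sources used here. The number of arrays limits the precision.

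Gene names came from the platform annotation. It gave 1 symbol for 23521 probe sets, several for 1814 and none for 16010, and the latter 2 kinds were not tested as genes. For 1082 genes with several probe sets, the one with the highest mean was used, which gave 22180 genes. Gene lists held 336 genes, 312 of them tested.

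The tests used R 4.3.3 and its package limma 3.58.1 (lmFit, eBayes), with 8 group means over all 24 arrays and 16 residual degrees of freedom, Benjamini-Hochberg adjusted over all genes, at a threshold of 0.05. The script was tested on simulated data. Experiment numbers in the labels paired the arrays. Deviations from group means correlated at 0.400 to 0.698 in the 18 insulin pairs of the same experiment and at -0.481 to 0.041 in 36 pairs of different experiments, so a fit with the experiment as a block (14 residual degrees of freedom) was an alternative. It leaves each difference as it is and changes its error. The genes named were Foxa2, Csnk2a1 and Uxs1, all genes that passed, the 12 largest averaged differences in each direction among genes with 1 sign in the 6 insulin pairs and a mean of at least 5, and members of the lists. The comparison, genes and lists were chosen with earlier results of these data known, and 3 lists (DNA replication, telomerase, hypoxia) were written after the present values were seen. Other alternatives were the insulin arrays alone with and without pairs as a block, 1 value per experiment, median centring, quantile normalization, a mean level of at least 4, the mean of probe sets, an intensity trend, and leaving out each experiment or insulin array. Promoter sequences came from RefSeq (GRCm38.p6). The sequence of the hairpin was not used here. Plots used Python 3.11.15 and matplotlib 3.10.9.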

Additional observations from a re-analysis of the deposited data

Results flagged for a closer look

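In 2 of the 24 named genes 1 of the 6 insulin pairs lay far from the others by Dixon's criterion for 6 values, and chance gives that in about 1 of 20 groups (2 of 24 here, in genes picked for large differences). Egln3 had -1.67 in the DMSO pair of experiment 2 (gap 0.938 of the range), and Nrg4 had -0.91 in the same pair (0.67).

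Hairpin differences on opposite sides of 0 were flagged for 4 genes. Fundc2 was lower in all 6 insulin pairs and higher in all 6 glucagon pairs, with experiment 3 and GW4064 at a rounded -0.00 and 0.00, and the difference of glucagon minus insulin was 0.57 (limma adjusted p = 0.777). With the mean of its probe sets the insulin difference was -0.14 instead of -0.33. Only 9 genes (0.0406%) had this pattern. The other 3 were lower in all DMSO pairs and higher in all GW4064 pairs under insulin. Over all genes 369 (1.66%) had that pattern and 317 (1.43%) the reverse, so it is not particular to these 3. A hairpin difference higher with GW4064 was the commoner side among genes with a mean of at least 4. At an unadjusted limma p under 0.05 it was higher for 89 of these and lower for 20. Where the mean was under 4, it was higher for 110 and lower for 368. Under insulin Pck1 and Ppargc1a lay near the floor, so this comparison by level does not place them. The difference between the drugs was 0.40 for Pck1, 0.64 for Ppargc1a and 0.53 for Gpt, and 0 of these 3 passed (limma adjusted p = 1.0 for each).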

How the results depend on the processing

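The averaged difference passed 1 gene as reported, 2 with the replicate block by experiment, and 0 with the insulin arrays only, with those arrays and pairs of experiment and drug as a block, or with 1 value per experiment. Leaving out an experiment or an insulin array gave 0 to 2. The call was lost without each experiment, and the second gene, without the GW4064 control array of experiment 2, was Gm11564. With DMSO alone 1 gene passed as reported. None (0) passed with the replicate block, the insulin arrays only, those with pairs as a block, 1 value per experiment, a mean level of at least 4 or an intensity trend, and 0 to 1 when an experiment or array was left out. With GW4064 alone, and for both interactions, 0 genes passed in every alternative run. Csnk2a1 kept its direction in 24 of 24 alternatives (-0.42 to -0.35) and passed in 18. It did not pass with the insulin arrays only (limma adjusted p = 0.178), with those and pairs as a block (0.106), with 1 value per experiment (0.197) or without any 1 experiment. Foxa2 kept its direction in all 24 (-0.56 to -0.35) and passed in 0. Its exact sign-flip p was 0.125 without any 1 experiment, the smallest that 4 pairs allow, with mean differences of -0.56 to -0.35. With 1 value per experiment, chosen after seeing the data, it was 0.25 at the same mean of -0.44. Terc passed in 1 of 24, the block, at 0.47 to 0.77. Of the 24 genes named for size, Csnk2a1, Foxa2 and Terc among them, 0 changed direction, which was largely fixed in advance. All had been picked for 1 sign in the insulin pairs, so leaving out an experiment could not reverse them. Either block, the insulin arrays only, 1 value per experiment, the level minimum and the intensity trend leave each difference as it is. Only centring, quantile normalization, the mean of probe sets and leaving out single arrays could have turned a direction. Among list members with differences near 0, Foxa3, Gpt and Nr1h4 turned negative after quantile normalization (-0.007, -0.02 and -0.033). The experiment block moved the unadjusted counts (1445 to 2312) and changed the calls of Terc in the averaged difference and of Csnk2a1 with DMSO, and under glucagon it added Slc6a6 (adjusted p = 0.0427). It changed no other call.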
